A study of Homo sapiens with 18 samples.

Results

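The 9 genes described here, MNX1, CARM1, RNF19B, TADA2B, BRD1, SLC6A8, SDK1, PAPD7 and C2orf72, were selected on their level in HepG2 cells given the phospholipid DLPC relative to cells given ethanol, as genes with some of the largest rises. They are 9 of the 35238 rows of the count table and 9 of the 14797 genes with enough counts to be tested, and all 9 passed the filter on low counts. The values that chose them were the DLPC and ethanol libraries, so every comparison of the 9 genes with those 6 libraries is given as a description. Where calls, adjusted p-values or intervals appear there, they describe the chosen genes and test nothing. The 12 libraries of the other groups played no part in the choice, and the tests of the 9 genes compare groups of those. The fit behind these tests drew its estimate of spread from all 18 libraries, including the 6 that chose the genes.

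The study measured RNA in HepG2, a human liver cancer line, treated with ligands that are known to bind the nuclear receptor LRH-1. It holds 18 libraries in 6 groups of 3, each library of unmodified HepG2 cells kept in medium with charcoal-stripped serum during treatment. The groups are DLPC (dilauroylphosphatidylcholine) at 100 µM, the small molecules 6N-10CA, 10CA and 6N at 10 µM each, ethanol at 0.1% and DMSO at 0.1%. The labels do not say which vehicle carried which compound, nor whether the replicates were separate cultures, and p-values therefore reflect no more than the differences among these libraries, part of which may be technical. The dose of DLPC differs from that of the small molecules, and their values are set side by side without a test.

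Total counts ran from 28135967 to 34992442 per library. Values are given as CPM, counts relative to the library's total after TMM scaling, which do not correct for gene length and are compared only within a gene. The labelled cell line was checked against liver markers: all 11 (among them ALB, AFP, APOA1 and HNF4A) averaged at least 1 CPM, and their summed level was 55690 to 69310 CPM. Of the markers of other cell types, 1 of 6 fibroblast, 3 of 4 endothelial and 3 of 6 blood genes averaged at least 1 CPM, while KDR and HBB were at 0 in every library and COL1A1, PTPRC and CD3E stayed at or below 0.51 CPM. The summed blood markers, of which CD68 held 79.8 to 106 CPM, were at 109.7 to 112.9 CPM in DLPC, 93.97 to 100.9 CPM in ethanol and 90.55 to 95.29 CPM in DMSO libraries. The endothelial sum was 37.97 to 45.21 CPM in DLPC, 35.96 to 37.5 CPM in ethanol and 32.81 to 34.85 CPM in DMSO libraries. The fibroblast sum was 8.28 to 9.82 CPM in DLPC, 9.77 to 10.8 CPM in ethanol and 7.089 to 11.05 CPM in DMSO libraries. Both the blood and the endothelial sum were higher in all DLPC libraries than in all ethanol libraries, and their part in the results was not tested. In bulk RNA, fewer cells that express a gene and less of its RNA per cell cannot be told apart.

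Most of the 9 genes encode regulators of transcription or of RNA and protein turnover. Coactivators such as CARM1, which methylates arginines of histones and of other coactivators, and the acetyltransferase complexes SAGA and HBO1, to which TADA2B and BRD1 belong as an adaptor and a scaffold subunit, help transcription factors, nuclear receptors among them, to activate genes. MNX1 is a homeobox transcription factor known for its part in motor neuron and pancreas development. RNF19B is a ubiquitin ligase of the RBR class, and PAPD7, also named TENT4A, is a non-canonical poly(A) polymerase that extends the tails of mRNAs. SLC6A8 carries creatine into cells, and SDK1 is an adhesion protein of the immunoglobulin superfamily, known in mouse and chick for its part in matching synaptic partners in the retina. No role is given here for C2orf72.

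The genes lie on 8 chromosomes of GRCh38 in GENCODE release 29. MNX1 spans chr7:156994051-157010651 on the minus strand and SDK1 chr7:3301448-4269000 on the plus strand. CARM1 lies at chr19:10871513-10923070 (plus), RNF19B at chr1:32936445-32964685 (minus), TADA2B at chr4:7041899-7057952 (plus), and BRD1 at chr22:49773283-49827512 (minus). SLC6A8 lies at chrX:153688099-153696593, PAPD7 at chr5:6713007-6757048 and C2orf72 at chr2:231037490-231049719, all on the plus strand. Apart from MNX1 and SDK1, no pair of them shares a chromosome. Whether the counting used strand is not given in the sources used here, and 3 of the genes overlap a gene of the opposite strand in the table: CARM1 overlaps YIPF2, which had 935 to 1380 counts per library, TADA2B overlaps CCDC96 with 4 to 28, and SLC6A8 overlaps PNCK with 391 to 890. Reads of each such pair cannot be told apart without strand.

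Since the genes varied together, the sequences around their starts were compared. RefSeq promoters on GRCh38.p14, 250 bases before to 50 after the start, were found for 7 of the 9 genes, all but RNF19B and PAPD7. The 3 shown belong to the genes with the largest ethanol-against-DMSO falls that have an entry, and are written 5′ to 3′ on the gene's strand, with GC boxes in capitals. TADA2B is at chr4:7043122-7043421 (plus), BRD1 at chr22:49827824-49828123 (minus, 1 of 3 entries) and MNX1 at chr7:157010614-157010913 (minus, 1 of 2 entries).
TADA2B: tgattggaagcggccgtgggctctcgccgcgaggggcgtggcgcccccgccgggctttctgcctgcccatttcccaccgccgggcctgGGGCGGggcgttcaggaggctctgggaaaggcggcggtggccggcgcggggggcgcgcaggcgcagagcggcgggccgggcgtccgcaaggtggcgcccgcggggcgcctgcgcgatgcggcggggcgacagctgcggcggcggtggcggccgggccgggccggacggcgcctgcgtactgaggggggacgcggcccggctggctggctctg
BRD1: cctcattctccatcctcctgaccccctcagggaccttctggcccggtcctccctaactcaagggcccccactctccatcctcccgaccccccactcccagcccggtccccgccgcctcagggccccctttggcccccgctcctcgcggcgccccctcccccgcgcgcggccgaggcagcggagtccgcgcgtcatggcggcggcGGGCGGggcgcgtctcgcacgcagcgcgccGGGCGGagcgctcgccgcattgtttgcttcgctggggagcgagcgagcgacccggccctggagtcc
MNX1: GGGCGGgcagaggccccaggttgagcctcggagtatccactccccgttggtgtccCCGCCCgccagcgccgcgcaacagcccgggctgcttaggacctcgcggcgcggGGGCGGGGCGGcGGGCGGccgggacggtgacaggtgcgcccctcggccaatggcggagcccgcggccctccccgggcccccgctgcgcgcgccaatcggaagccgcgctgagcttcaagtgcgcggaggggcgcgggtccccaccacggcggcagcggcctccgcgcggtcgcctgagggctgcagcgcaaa
The GC box was searched as GGGCGG or its reverse complement CCGCCC, with overlapping matches counted. It occurred 1 time in TADA2B, 2 times in BRD1 and 5 times in MNX1. It was present in 6 of the 7 promoters, SDK1 having none, and in 45.0% of the 35116 promoters in the table. Those 35116 are not limited to genes tested here, so the values over all promoters are not those of genes expressed in HepG2. The SDK1 and TADA2B entries lie inside the GENCODE spans of their genes. That of SDK1, at chr7:4129435-4129734, is far from the start of its span at 3301448, so its values describe an internal start. GC content was 81.0% for TADA2B, 76.0% for BRD1 and 78.3% for MNX1, and its median was 76.0% over the 7 genes and 58.7% over all promoters. The ratio of observed to expected CpG had a median of 0.92 over the 7 and of 0.58 over all. The transcripts leaned the same way: their GC content was 52.8% to 68.6% for the 9 genes, with all 9 above the median of 49.0% over the 14195 tested genes with a matched transcript. Their median transcript length was 3763 bases, beside 3533 bases over all. Whether base composition has a part in the values below was not tested.

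In the libraries that chose them, the 9 genes were higher with DLPC than with ethanol by 0.69 to 0.87 on the log2 scale, with a median of 0.82. All 9 passed the threshold of the edgeR quasi-likelihood test (adjusted p of 0.05), which is how they were chosen, and 0.629% of all tested genes were called higher in this comparison. Of 93 genes that met the criteria, C2orf72, ranked 10 at 0.69, was the last inside and BTBD2, at 0.68 with 102.5 ± 6.56 CPM in DLPC and 64.1 ± 11.8 CPM in ethanol libraries (SD, n = 3 each), the first outside. When DMSO took the place of ethanol, the median for DLPC was 0.17 and the range from -0.05 in TADA2B to 0.43 in SDK1. Ethanol itself was lower than DMSO in 9 of 9, with a median of -0.63, beside a median within 0.001 of 0 over all tested genes. These comparisons share libraries and are given side by side. Because ethanol entered the ranking and DMSO did not, a smaller difference against DMSO can follow from the choice itself. So can a low level in ethanol. How much of either comes from the choice was not tested.

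Among the transcriptional regulators, TADA2B had 19.1, 23.7 and 19.5 CPM in DLPC libraries, 12.9, 13.3 and 16.2 CPM in 6N-10CA, and 20.2, 20.3 and 15.1 CPM in 10CA. It had 18.3, 24.5 and 18.6 CPM in 6N libraries, 9.93, 10.2 and 15.2 CPM in ethanol, and 23.0, 24.7 and 16.9 CPM in DMSO (replicates 1, 2 and 3 in each group). All ethanol libraries and all 6N-10CA libraries were below all DMSO libraries, whereas the DLPC and DMSO libraries overlapped. TADA2B was the gene of the 9 with the largest ethanol difference and the only one with a negative DLPC difference against DMSO. Ethanol stood 0.88 below DMSO on the log2 scale (95% interval -1.24 to -0.51, edgeR adjusted p = 0.367). DLPC against DMSO was -0.05 (-0.40 to 0.30, edgeR adjusted p = 0.92). The intervals are not adjusted for the number of genes. For ethanol against DMSO, edgeR and limma-voom called 0 of the 9, and 0 of all tested genes. DESeq2 called 2, edgeR with the replicate number as a block 2, and edgeR with no filter on low counts 8. Over all genes these called 10, 18 and 37. These counts are descriptions too.

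BRD1 had 32.1, 34.7 and 32.2 CPM in DLPC libraries, 14.3, 17.0 and 24.9 CPM in ethanol libraries, and 33.0, 34.4 and 23.4 CPM in DMSO libraries. Ethanol replicate 3 was above DMSO replicate 3, so that ethanol and DMSO overlapped, as did DLPC and DMSO. CARM1 had 40.1, 48.7 and 44.8 CPM in DLPC libraries, 21.2, 19.8 and 33.0 CPM in ethanol libraries, and 44.5, 40.4 and 29.5 CPM in DMSO libraries. It too had its highest ethanol value and its lowest DMSO value in replicate 3, and those overlapped. Against DMSO, ethanol was -0.70 for BRD1 and -0.63 for CARM1 on the log2 scale, and DLPC was 0.12 and 0.22 in the same order of genes.

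MNX1 had 9.17, 10.8 and 10.9 CPM in DLPC libraries, 5.01, 5.26 and 6.68 CPM in ethanol libraries, and 10.3, 8.95 and 7.95 CPM in DMSO libraries. Its ethanol libraries were all below its DMSO libraries, and its DLPC libraries overlapped with DMSO. The log2 difference from DMSO was -0.69 for ethanol and 0.18 for DLPC.

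Of the genes of RNA and protein turnover, RNF19B had 15.3, 17.2 and 14.5 CPM in DLPC libraries, 7.42, 7.91 and 10.8 CPM in ethanol libraries, and 18.3, 17.0 and 11.3 CPM in DMSO libraries. PAPD7 had 13.6, 14.8 and 13.9 CPM in DLPC libraries, 7.74, 7.27 and 10.4 CPM in ethanol libraries, and 12.8, 12.2 and 10.5 CPM in DMSO libraries. In both, every ethanol library was below every DMSO library, RNF19B by 0.84 and PAPD7 by 0.49 on the log2 scale. In PAPD7 every DLPC library was also above every DMSO library, with a log2 difference of 0.25, whereas in RNF19B the DLPC and DMSO libraries overlapped and the difference was 0.01.

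The creatine carrier SLC6A8 had 638, 562 and 579 CPM in DLPC libraries, 327, 285 and 420 CPM in ethanol libraries, and 607, 514 and 459 CPM in DMSO libraries. The adhesion gene SDK1 had 10.2, 10.4 and 9.80 CPM in DLPC libraries, 5.53, 5.35 and 6.75 CPM in ethanol libraries, and 9.27, 6.85 and 6.41 CPM in DMSO libraries. SDK1 kept the largest difference of DLPC against DMSO, 0.43 on the log2 scale (95% interval 0.11 to 0.74), with no overlap. Its edgeR adjusted p there was 0.154, above the threshold. SDK1 had the smallest difference of ethanol against DMSO, -0.36. SLC6A8 stood at 0.17 with DLPC and -0.62 with ethanol against DMSO, the ethanol libraries not overlapping with DMSO. C2orf72 had 272, 279 and 279 CPM in DLPC libraries, 158, 145 and 213 CPM in ethanol libraries, and 277, 260 and 211 CPM in DMSO libraries, a log2 difference from DMSO of 0.15 with DLPC and -0.54 with ethanol. In all, ethanol and DMSO did not overlap in 5 genes (MNX1, RNF19B, TADA2B, SLC6A8 and PAPD7), beside 4.19% of all tested genes that were lower without overlap. DLPC and DMSO did not overlap in 2 genes (SDK1 and PAPD7), beside 11.4% of all tested genes that were higher without overlap. The choice favoured genes low in these ethanol and high in these DLPC libraries, and the 9 varied together. Neither count can therefore be read as an excess over its share.

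**Figure D1:**
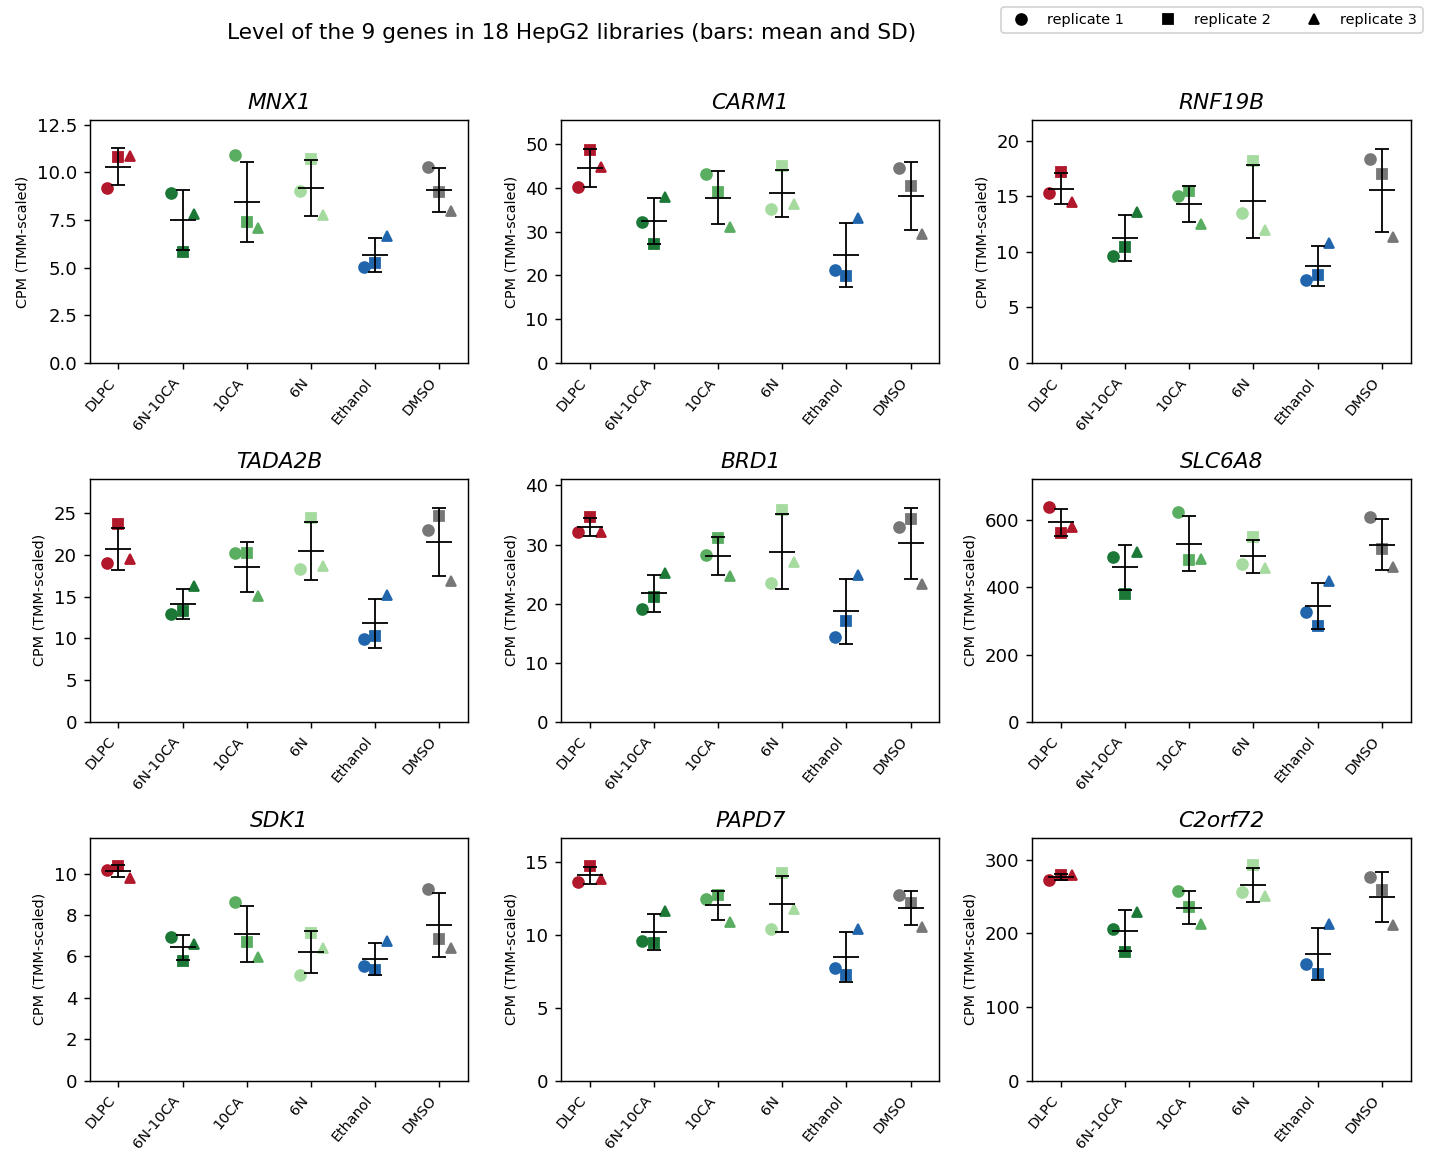
Level of each of the 9 genes in CPM in each of the 18 libraries, by group, with 1 point per library and the mean and SD (n = 3) of each group. Ethanol has the lowest mean in all 9 genes, and its replicate 3 lies above its replicates 1 and 2 in every gene.

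Ordered by mean, ethanol was the lowest group in 9 of 9 genes and DLPC the highest in 8, TADA2B being highest in DMSO. The 6N-10CA group was next to ethanol in 8 genes, and 6N was in SDK1. Neighbouring groups in these orders overlapped in every gene but 1: in SDK1 all DLPC libraries (9.80 to 10.4 CPM) were above all DMSO libraries (6.41 to 9.27 CPM). The order of the groups between the ends is therefore not resolved by 3 libraries each.

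The low level was not equal among the ethanol libraries. Averaged over the 9 genes, the log2 level relative to the DMSO mean was -0.80 and -0.81 in ethanol replicates 1 and 2, and -0.30 in replicate 3. It was 0.13, 0.25 and 0.15 in DLPC, -0.33, -0.49 and -0.15 in 6N-10CA, 0.10, -0.05 and -0.27 in 10CA, -0.18, 0.19 and -0.15 in 6N, and 0.20, 0.07 and -0.27 in DMSO. Ethanol replicate 3 thus lay near DMSO replicate 3 and above 6N-10CA replicates 1 and 2. Ethanol replicate 2 was among the 2 lowest of the 18 libraries in 9 genes, replicate 1 in 8 and replicate 3 in none. Beside this, mitochondrial mRNAs held 0.517%, 0.448% and 0.424% of counts in ethanol replicates 1, 2 and 3 within a range of 0.391% to 0.517% over all libraries, and ribosomal protein mRNAs 2.47% to 2.85%; their part in the result was not tested. With 1 library left out, its group is smaller and the test weaker. The call that the choice used was then kept by all 9 genes only without ethanol replicate 3. Without ethanol replicates 1, 2 and 3 it was met by 2, 0 and 9 of the 9 genes, when 87, 56 and 83 of all tested genes were called in either direction. Without DLPC replicates 1, 2 and 3 it was met by 4, 3 and 3 of the 9, when 59, 118 and 70 of all tested genes were. These counts describe the choice and test nothing. The median difference of DLPC from ethanol was 0.74, 0.72 and 1.0 without ethanol replicates 1, 2 and 3, and 0.84, 0.78 and 0.83 without DLPC replicates 1, 2 and 3.

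**Figure D2:**
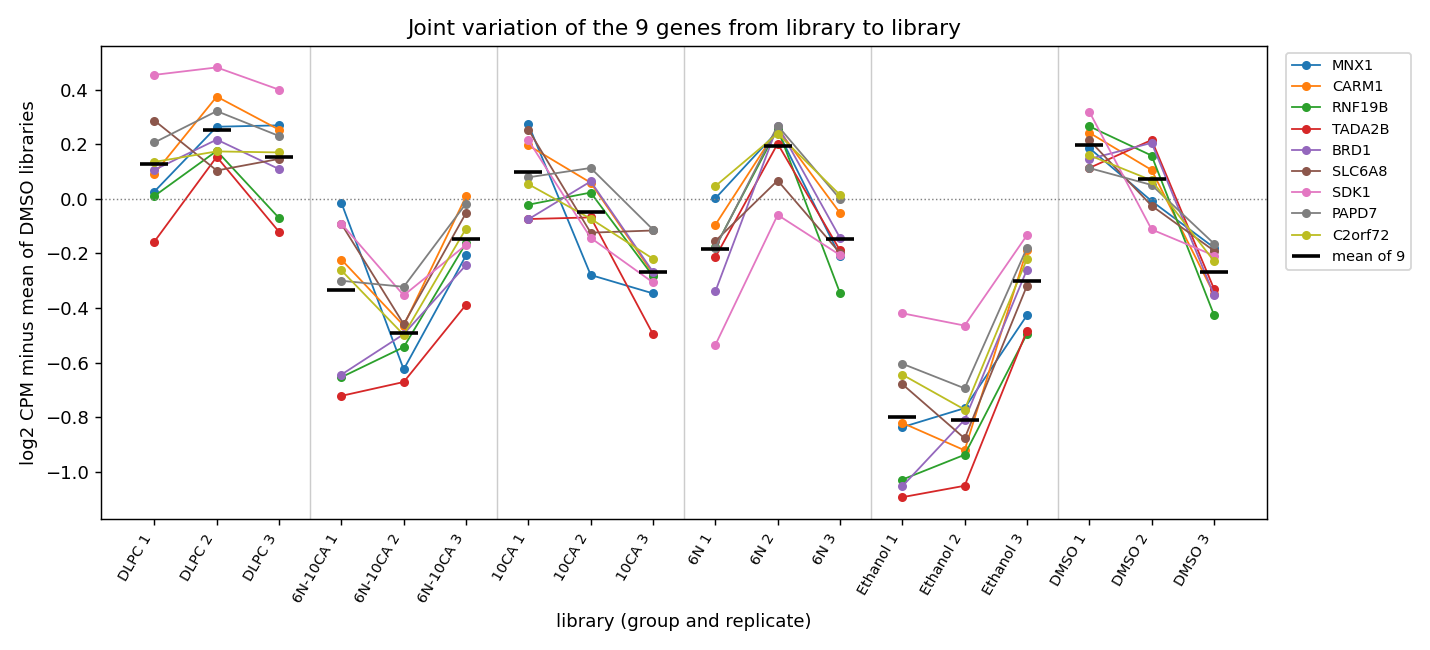
Log2 CPM of the 9 genes in the 18 libraries relative to each gene's DMSO mean, with 1 line per gene that only joins its points within a group and a black bar at the mean of the 9. The lines run together, with ethanol replicates 1 and 2 lowest and ethanol replicate 3 near DMSO replicate 3.

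The levels varied together also in the 12 libraries that did not choose the genes (DMSO, 6N, 10CA and 6N-10CA). Over the 36 pairs of genes, Pearson's r of log2 CPM had a median of 0.82 (0.47 to 0.95) and Spearman's rho a median of 0.78 (0.45 to 0.94). In 28 pairs the two-sided permutation p of r, adjusted over the 36 pairs by Benjamini-Hochberg, was under 0.05, and in 27 that of rho was. The median r over all pairs of the 10686 genes with at least 5 CPM was 0.002, and 0.612% of those pairs exceeded 0.82. The points of a pair share their libraries and depth. The permutations treated the 12 libraries as exchangeable, although they come from different groups and same-numbered libraries share deviations. The permutation p-values are therefore approximate.

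RNF19B and BRD1 had r = 0.95 (permutation p = 1e-05, the smallest that 100000 permutations can give, adjusted p = 0.00012) and rho = 0.93 (permutation p = 7e-05, adjusted p = 0.00084). The acetyltransferase subunits TADA2B and BRD1 had r = 0.95 with the same permutation p and adjusted p, and rho = 0.94 (permutation p = 3e-05, adjusted p = 0.00084). CARM1 and C2orf72 had r = 0.92 (permutation p = 2e-05, adjusted p = 0.00018) and rho = 0.91 (permutation p = 0.00011, adjusted p = 0.00087). The weakest pairs were those of SDK1 with C2orf72 and with TADA2B, both with r = 0.47 (permutation p = 0.13, adjusted p = 0.13). Their rho was 0.58 with C2orf72 (permutation p = 0.052, adjusted p = 0.063) and 0.54 with TADA2B (permutation p = 0.076, adjusted p = 0.083). For each pair, r was also taken without the 2 libraries farthest from the median of its first gene, in the order of the opening list. It then had a median of 0.73 (0.38 to 0.93). With group means removed, the median stayed at 0.82 (lowest 0.34), and with group and replicate-number means removed it was 0.91 (0.59 to 0.99). Joint variation was therefore also present once differences between groups and between replicate numbers had been taken out. For r with means removed, no p and no value over all pairs of genes were computed. SDK1 followed the others least: its r with the mean profile of the 9 was 0.71, against 0.82 for MNX1, 0.87 for SLC6A8 and 0.89 to 0.97 for the other 6 genes, each gene being part of that mean.

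**Figure D3:**
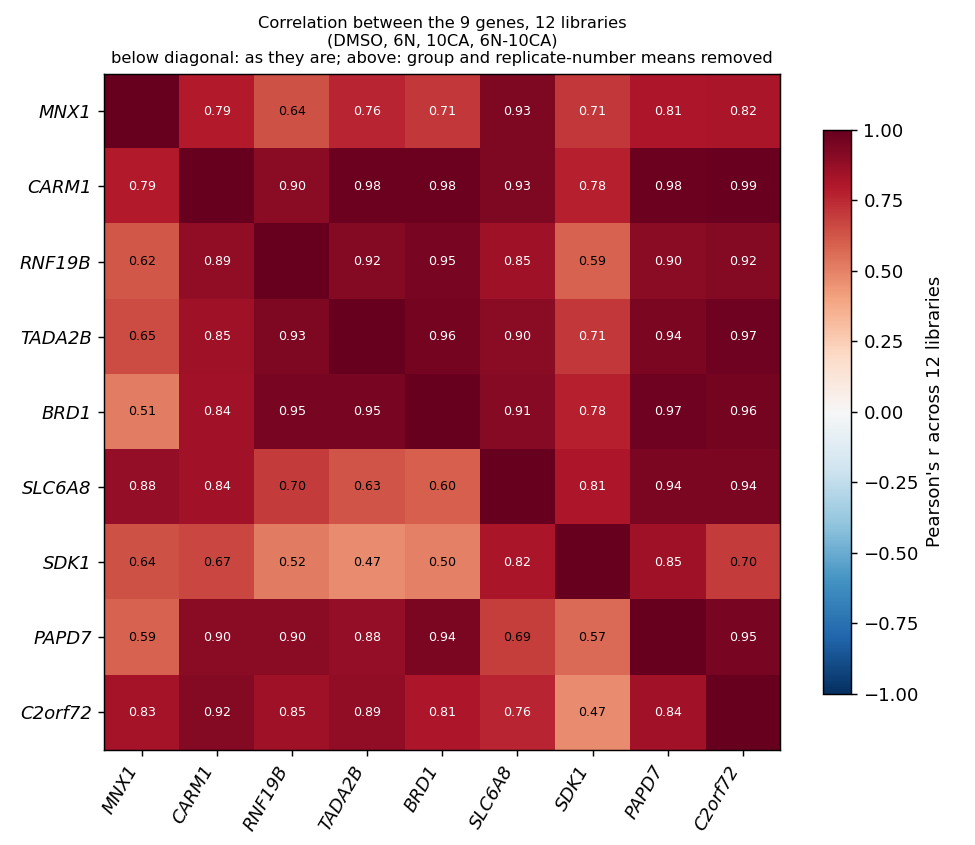
Pearson's r of log2 CPM between each pair of the 9 genes over the 12 libraries of DMSO, 6N, 10CA and 6N-10CA, as measured below the diagonal and with group and replicate-number means removed above it. Values below the diagonal run from 0.47 (SDK1 with TADA2B and with C2orf72) to 0.95 (BRD1 with RNF19B and with TADA2B).

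The genes also varied more between replicates than most. Within those 4 groups, the SD of log2 CPM was 0.286 for RNF19B, 0.273 for MNX1, 0.254 for BRD1, 0.248 for CARM1 and 0.240 for TADA2B. It was 0.239 for SDK1, 0.199 for SLC6A8, 0.170 for PAPD7 and 0.168 for C2orf72, beside a median of 0.091 over genes with at least 5 CPM. Each of the 9 exceeded 89.4% to 98.8% of those genes.

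The tests between groups that did not choose the genes asked whether the small molecules moved them. For 6N-10CA against DMSO, 9 of 9 had a negative log2 fold change, with a median of -0.28 (-0.61 to -0.20), beside 0.001 over all tested genes. The 9 genes varied together, so their shared sign is not 9 separate observations. Of the 9, 0 were called by edgeR's quasi-likelihood test, beside 0.264% of all tested genes. The unadjusted p was under 0.05 in 4 of 9, beside 9.91% of all tested genes, and limma-voom called 0 and DESeq2 called 1, beside 1.18% of all tested genes with DESeq2. The largest was TADA2B, whose 6N-10CA libraries averaged 14.1 ± 1.82 CPM and DMSO libraries 21.5 ± 4.09 CPM (SD, n = 3 each). Its log2 fold change was -0.61 (SE 0.17, 95% interval -0.97 to -0.25, edgeR adjusted p = 0.16), lower without overlap as in 7.26% of all tested genes. With the replicate number as a block, TADA2B passed the threshold (edgeR adjusted p = 0.029), when 3.8% of all tested genes did. RNF19B and BRD1 each had -0.47 (SE 0.18), with edgeR adjusted p of 0.366 and 0.355, and C2orf72 had -0.29 (SE 0.12, edgeR adjusted p = 0.429).

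6N-10CA was also lower than 6N in 8 of 9 genes, with a median of -0.29 and SDK1 at 0.05. Here too, the shared sign is not 8 separate observations. None of the 9 were called by edgeR's quasi-likelihood test, beside 1.64% of all tested genes, and 3 had an unadjusted p under 0.05, beside 14.4%. DESeq2 called 1, beside 3.39% of all tested genes, and limma-voom 0. TADA2B had -0.53 (SE 0.17, edgeR adjusted p = 0.138) and C2orf72, with 204 ± 27.3 CPM in 6N-10CA and 266 ± 22.9 CPM in 6N libraries (SD, n = 3 each), had -0.39 (SE 0.12, edgeR adjusted p = 0.133). Both were lower without overlap, beside 8.66% of all tested genes, and both passed with the replicate number as a block (edgeR adjusted p of 0.037 and 0.039), when 8.32% of all tested genes did.

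The other comparisons had medians nearer to 0. The median log2 fold change was -0.22 for 6N-10CA against 10CA, -0.08 for 10CA against DMSO, -0.07 for 6N against DMSO and -0.04 for 10CA against 6N. In these, edgeR, DESeq2 and limma-voom called 0 of the 9, beside 0.23%, 0%, 1.14% and 1.71% of all tested genes with edgeR. The unadjusted edgeR p was under 0.05 for 1 of 9 in the first of these 4 comparisons and for 0 in the others, beside 8.4%, 6.98%, 9.35% and 13.9% of all tested genes. A p that misses the threshold does not show that the levels were equal. Against ethanol, the median was 0.27 for 6N-10CA, 0.59 for 10CA and 0.63 for 6N, given without a test. Ethanol replicate 3 weighs on these values: without it the median for 6N-10CA was 0.48.

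**Figure D4:**
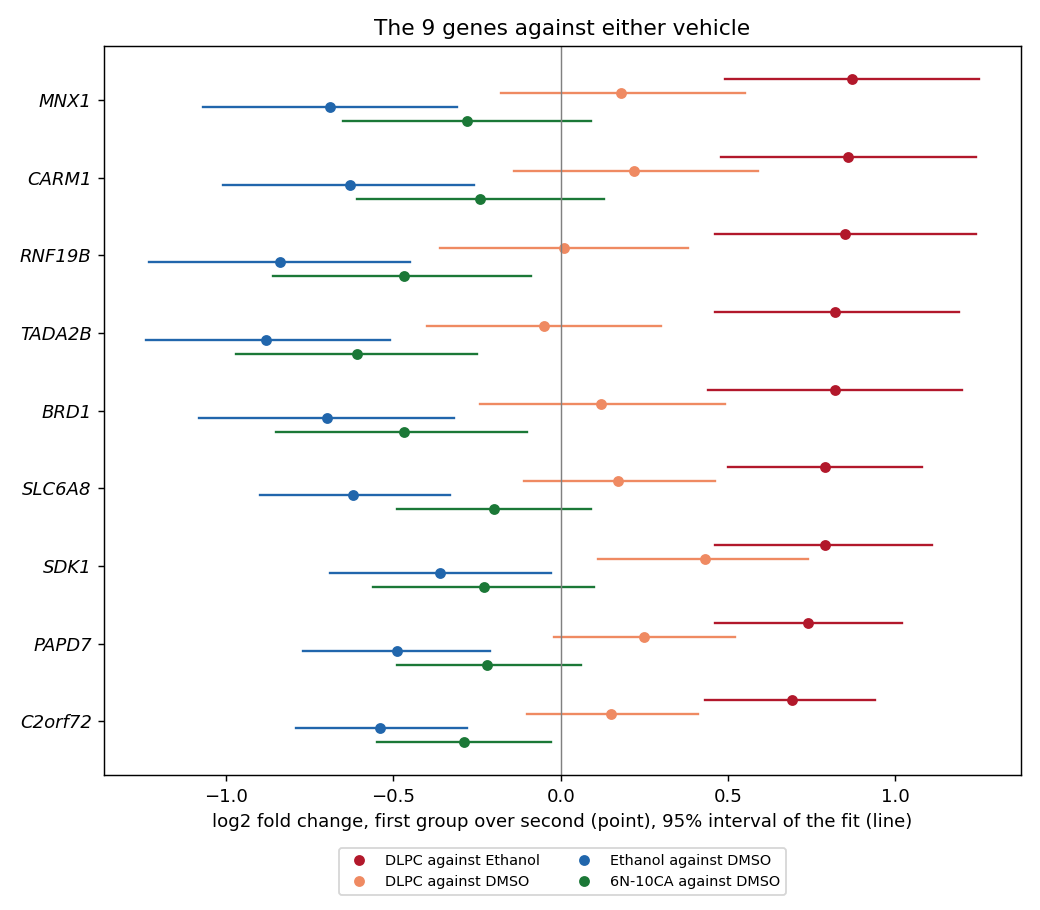
Log2 fold change of each of the 9 genes with its 95% interval in the comparisons named in the legend. DLPC lies above ethanol by 0.69 to 0.87 but between -0.05 and 0.43 of DMSO, and 6N-10CA lies below DMSO by 0.20 to 0.61.

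Relatives and partners of the genes were taken from lists and do not include the 9 themselves. For 6N-10CA against DMSO, edgeR's quasi-likelihood test called 0 of 7 other arginine methyltransferases, 0 of 25 other SAGA and ATAC subunits, 0 of 11 partners of the BRD1 complexes, 0 of 13 other RBR ligases and 0 of 13 poly(A) polymerases and deadenylases. Unadjusted p was under 0.05 for 0, 5, 0, 3 and 1 of them in that order of lists, beside 9.91% of all tested genes, and DESeq2 and limma-voom called 0 in each. With the replicate number as a block, when 3.8% of all tested genes were called, 1 was called in these lists: RNF19A, a paralog of RNF19B, was higher (log2 fold change 0.21, edgeR adjusted p = 0.031). Their median log2 fold changes were 0.00, 0.00, -0.01, 0.05 and 0.02. Of 7 other creatine genes 0 were called (unadjusted p under 0.05 in 1, 0 by DESeq2 and limma-voom), and of 9 other SLC6 transporters SLC6A14 was lower, as were 0.122% of all tested genes (log2 fold change -0.57, SE 0.11, edgeR adjusted p = 0.033), which did not pass without any 1 of the 6 libraries (edgeR adjusted p of 0.052 to 0.178). DESeq2 called 2 of these 9 lower, SLC6A14 and SLC6A4 (log2 fold change -0.31, DESeq2 adjusted p = 0.011), beside 1.18% of all tested genes. With the replicate number as a block, edgeR called 4 of the 9 lower, beside 3.8% of all tested genes: SLC6A14 (adjusted p = 0.003), SLC6A4 (-0.30, adjusted p = 0.006), SLC6A9 (-0.28, adjusted p = 0.033) and SLC6A12 (-0.45, adjusted p = 0.048). For DLPC against ethanol, 0 genes of the 5 regulator lists were called by edgeR without a block, DESeq2 or limma-voom, with medians of -0.05 to 0.09 and unadjusted p under 0.05 in 1, 5, 1, 2 and 1 of them, beside 13% of all tested genes. With the replicate number as a block, 3 were called by edgeR: PRMT6 (log2 fold change -0.12, adjusted p = 0.047) and TADA3 (-0.11, adjusted p = 0.043) were lower and CNOT8 (0.23, adjusted p = 0.011) was higher, beside 6.74% of all tested genes. List genes called only by DESeq2 or with the block were named after their values were seen.

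Over the 12 libraries, r with the mean profile of the 9 had a median of -0.12 for the arginine methyltransferases, 0.10 for SAGA and ATAC, 0.17 for the BRD1 partners, -0.11 for the RBR ligases and -0.14 for the poly(A) genes. Immediate early genes, whose mRNAs change quickly when cells are handled, had a median of -0.12. Of the 18 immediate early genes, JUNB (log2 fold change -0.38, edgeR adjusted p = 0.037) and IER2 (-0.34, edgeR adjusted p = 0.036) were lower with DLPC than with ethanol, beside 0.412% of all tested genes. Both calls were lost when single libraries were left out, with edgeR adjusted p of up to 0.158 for JUNB and 0.15 for IER2. DESeq2 called 3 lower (JUNB, IER2 and FOSL1 at -0.59) and 1 higher (JUND at 0.34), beside 2.57% of all tested genes. With the replicate number as a block, edgeR called 7 lower and 2 higher of the 18, beside 6.74% of all tested genes. Their part in the result was not tested.

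The 5 genes outside the 9 whose log2 CPM over the 12 libraries was most like the mean profile of the 9 were KIAA0930 (r = 0.96), PCSK6, a proprotein convertase (0.96), GNAS, the stimulatory G protein alpha subunit (0.95), RXRA, the retinoid X receptor that partners many nuclear receptors (0.93), and ZNF777, a zinc finger gene (0.93). The DLPC and ethanol libraries were not used to rank them, but those libraries had chosen the 9 genes whose profile was followed. Genes that vary with the 9 can repeat that difference, so the values below are no independent test of it. PCSK6 itself ranked 12 among the 93 genes that met the criteria of the choice. In the DLPC and ethanol libraries all 5 were higher with DLPC without overlap, beside 9.79% of all tested genes. PCSK6 averaged 205 ± 9.84 CPM in DLPC and 128 ± 16.3 CPM in ethanol libraries (SD, n = 3 each), a log2 fold change of 0.68 (SE 0.10, edgeR adjusted p = 0.00248). RXRA averaged 111 ± 1.71 CPM in DLPC and 77.4 ± 9.26 CPM in ethanol libraries, with 0.53 (SE 0.09, edgeR adjusted p = 0.00363). GNAS averaged 714 ± 17.7 CPM in DLPC and 511 ± 90.0 CPM in ethanol libraries, with 0.48 (SE 0.11, edgeR adjusted p = 0.041). These 3 of 5 were called, beside 0.629% of all tested genes, and the GNAS call was lost when any of 5 of the 6 libraries was left out (edgeR adjusted p of 0.097 to 0.211). KIAA0930 had 0.46 (SE 0.14, edgeR adjusted p = 0.133) and ZNF777 0.50 (SE 0.13, edgeR adjusted p = 0.071), and neither was called, while with the replicate number as a block both were (edgeR adjusted p of 0.041 and 0.012), when 6.74% of all tested genes were. With DMSO in place of ethanol the log2 fold changes were -0.02 for KIAA0930, 0.14 for PCSK6, 0.01 for GNAS, 0.21 for RXRA and -0.03 for ZNF777.

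**Figure D5:**
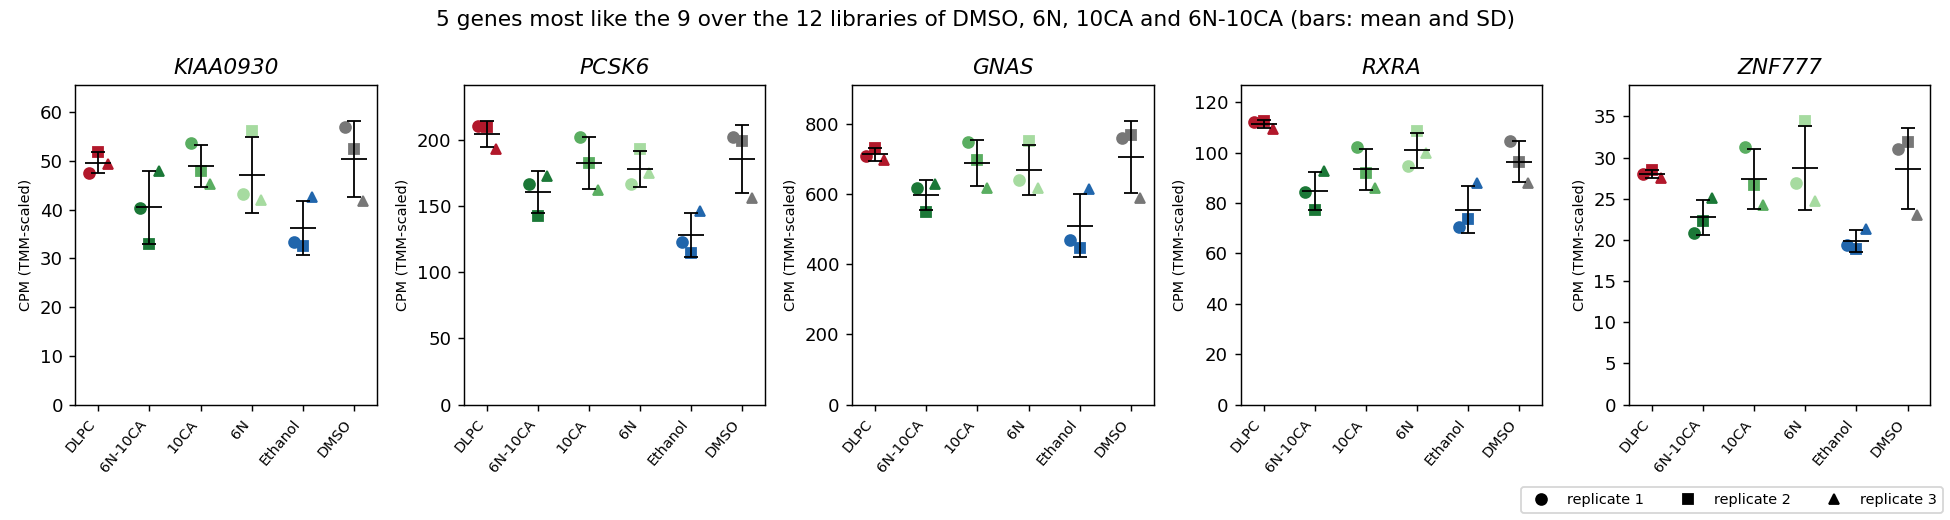
Level in CPM of the 5 genes most like the 9 in each of the 18 libraries, by group, with 1 point per library and the mean and SD (n = 3) of each group. In all 5 the 3 DLPC libraries lie above the 3 ethanol libraries.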

How the data were processed

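RNA-seq of HepG2 cells gave 18 libraries, read as single-end reads of 100 bases, per the labels' protocols. The authors deposited 1 table of raw counts by gene symbol, in whole numbers. GRCh38 as the build and DESeq2 as a tool are named in the submitters' processing notes. Aligner, counter, annotation and strandedness were not given in the sources used here.

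Genes were kept by filterByExpr of edgeR 4.0.16 (minimum count 10, minimum total 15), which left 14797 genes holding 99.96% of counts. All 18 libraries entered 1 quasi-likelihood fit with TMM scaling and 1 mean per group, with two-sided p-values adjusted by Benjamini-Hochberg over all tested genes and called at 0.05. The SE is the absolute log2 fold change over the root of F. The biological coefficient of variation was 7.0%. CPM use TMM-scaled totals (raw totals for cell markers), and correlations use log2 CPM with TMM and a prior count of 2. The chi-square per gene between replicates of a group was 4.48 to 13.67, above sampling noise. Intervals cover the spread between libraries and counting error only.

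Members, lists and comparisons were chosen with earlier results of these data known, and the pattern of the 9 genes in ethanol was among those results, as was PCSK6. The named genes are the 9, the 5 most like them by r with their mean profile over 12 libraries, those at the edge of the choice, and list genes that were called. Replicate numbers come from the titles. Deviations of same-numbered libraries from their group means correlated with a median r of 0.31 (-0.01 to 0.59), and those of differently numbered libraries with -0.13. All 3 pairs exceeded 0.1 in every comparison given here except 6N with DMSO and 6N with ethanol, and blocked values are given where the block changed a call. Alternatives were RLE scaling, no filter, DESeq2 1.42.0, limma-voom (limma 3.58.1), the replicate block, the 12 libraries alone, the other vehicle and each library left out. On simulated counts for 6N-10CA against DMSO, the test was checked for recovery of known changes. Sequences come from RefSeq.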

Additional observations from a re-analysis of the deposited data

How the results depend on the processing

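The values for DLPC differed with the vehicle, of which only ethanol had entered the choice of the genes. The median log2 fold change of the 9 genes for DLPC, 0.82 against ethanol, was 0.17 against DMSO and 0.48 against both vehicles averaged. Against DMSO, TADA2B (-0.05), KIAA0930 (-0.02) and ZNF777 (-0.03) changed sign. For 6N-10CA against DMSO, the 0 genes called became 3 with no filter on low counts, 1 with the replicate block and 1 with DESeq2, while the calls over all genes, 39 before, became 126, 562 and 174. For 6N-10CA against 6N, the 0 became 3 with no filter, 2 with the replicate block and 1 with DESeq2, while the calls over all genes, 242 before, became 403, 1231 and 501. The block changed no other call of the 9 genes in the 6 tested comparisons. With 1 library left out, both counts stayed at 0. SDK1 in 6N-10CA against 6N was -0.08 without 6N replicate 1 and -0.01 without 6N-10CA replicate 1, against at most 0.16 with other libraries left out, and SLC6A8 ran from -0.17 to 0.02, the last without 6N-10CA replicate 2. The cause of these shifts was not tested.

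Over single libraries left out, the median ran from 0.72 to 1.0 for DLPC against ethanol, 0.07 to 0.29 for DLPC against DMSO, -0.82 to -0.49 for ethanol against DMSO, 0.52 to 0.83 for 6N, 0.49 to 0.79 for 10CA and 0.17 to 0.48 for 6N-10CA against ethanol. The median correlation ran from 0.74 to 0.84. With 3 libraries a group, and replicates that differ over all genes by more than counting noise, the spread between libraries limits these values. Limits from depth were not compared for the 9 genes.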
